A study of Homo sapiens with 9 samples.

Results

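The nuclear genes that encode subunits of the oxidative phosphorylation machinery were followed in LAN-5 cells given S100B. They were chosen by name: every probe set with a single gene symbol beginning NDUFA, NDUFB, NDUFC, NDUFS, NDUFV, SDHA, SDHB, SDHC, SDHD, UQCR, COX4I, COX5, COX6, COX7, COX8 or ATP5 was taken, and the NDUFAF assembly factors were left out. The rule uses gene names alone. The rule found 61 probe sets for 61 genes among the 7713 genes that have a single symbol on the array, of which 26 belong to complex I, 2 to complex II, 6 to complex III, 13 to complex IV and 14 to complex V. A further 6 probe sets of genes under these names carry several symbols and were not used.

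LAN-5 is an established line of human neuroblastoma, a tumour of the sympathetic nervous system, and S100B is a small calcium-binding protein that glial cells release. RNA was measured on 9 one-colour Affymetrix oligonucleotide arrays. The groups were cells kept in culture medium alone (untreated), cells given S100B at 0.5 nM and cells given S100B at 5 µM, with 3 arrays each, which the series' design calls biological replicates. All groups are of the same line, so they show the behaviour of 1 cell line only, and the length of the treatment is not given in the sources used here. Each value is the deposited log2 expression of a probe set, so a difference of 1 is a doubling. Fewer cells of a kind and less RNA per cell cannot be told apart in such bulk samples. Of the 11 measured marker genes of sympathoadrenal neuroblastoma, 10 lay above the intensity filter, among them DBH, PHOX2A and CHGA, and TH lay below it. Of the leukocyte markers CD14 and PTPRC lay below the filter and CD3E and CD74 above it. VIM and S100A4 of the mesenchymal markers and KRT18 and KRT8 of the epithelial markers also lay above the filter. None of the markers above the filter passed the test in any comparison, and those below it were not tested.

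Oxidative phosphorylation couples the oxidation of nutrients to the making of ATP in the inner mitochondrial membrane. Complexes I and II pass electrons from NADH and succinate to ubiquinone, complex III passes them on to cytochrome c, complex IV hands them to oxygen, and complex V, the ATP synthase, uses the proton gradient that complexes I, III and IV build. Most subunits are encoded in the nucleus and a few in mitochondrial DNA; only nuclear genes are among the members. Neurons draw heavily on this pathway. The nuclear respiratory factor NRF1, the ETS-family factor GABP (also known as nuclear respiratory factor NRF2) and YY1 are textbook regulators of these genes.

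The promoters of the members are shown first, as a feature that the name rule did not use. RefSeq windows on GRCh38.p14, from 250 bases before to 50 bases after a transcription start, were at hand for 53 of the 61 members, and were searched on both strands. The NRF1 motif GCGCANGCGC stood in the windows of 12 members, or 22.6%, against 12% of the 4215 tested genes with a window and 6.98% of 27305 genes in the table. The ETS motif CCGGAAG was found for 16 members, or 30.2%, against 19.5% of the tested genes and 12.2% of the table. The YY1 motif AAGATGG was found for 14 members, or 26.4%, against 9.56% and 7.11%. At least one of the motifs was present for 32 of the 53. The median GC content was 58.7% for the members, 64.3% for the tested genes and 58.3% for the table. A match is a description of letters and not a binding site. The sequences below are from genes whose array values are given later, with the motif in capitals, read 5′ to 3′ on the strand of the gene, so that a match on the other strand appears as its reverse complement.
UQCRC1, NRF1 motif, chr3:48609664-48609713, minus strand: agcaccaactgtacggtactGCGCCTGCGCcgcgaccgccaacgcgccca
SDHD, NRF1 motif, chr11:112086743-112086792, plus strand: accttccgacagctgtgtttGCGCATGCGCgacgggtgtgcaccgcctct
NDUFS1, ETS motif, chr2:206159575-206159621, minus strand: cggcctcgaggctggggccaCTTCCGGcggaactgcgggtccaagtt
COX5B, ETS motif, chr2:97646005-97646051, plus strand: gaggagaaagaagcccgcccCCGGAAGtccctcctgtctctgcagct
COX6A1, ETS motif, chr12:120438077-120438112, plus strand: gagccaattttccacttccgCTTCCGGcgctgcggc
COX8A, ETS motif, chr11:63974582-63974619, plus strand: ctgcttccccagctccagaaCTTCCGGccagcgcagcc
ATP5F1A, ETS motif, chr18:46098318-46098364, minus strand: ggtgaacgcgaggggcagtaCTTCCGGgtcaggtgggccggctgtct

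The gene for the inhibitor of the ATP synthase, ATP5IF1, had the largest difference from untreated cells of the 59 tested members at either dose, and its upstream sequence held none of the 3 motifs. The 250 bases before its start had a GC content of 57.6% and 15 CG dinucleotides, which are in capitals.
ATP5IF1, chr1:28235874-28236123, plus strand: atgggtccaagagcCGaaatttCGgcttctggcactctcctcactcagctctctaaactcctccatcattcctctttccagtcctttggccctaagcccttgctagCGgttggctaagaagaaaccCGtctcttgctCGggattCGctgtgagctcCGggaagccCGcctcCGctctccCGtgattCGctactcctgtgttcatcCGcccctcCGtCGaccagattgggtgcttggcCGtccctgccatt

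No oxidative phosphorylation gene passed the test at either dose of S100B. For each tested member the 95% interval of the difference in deposited signal lay within a 1.5-fold change either way. Of the 61 members, 59 lay above the intensity filter. At 5 µM against untreated cells 23 of these were higher and 36 lower, from -0.12 to 0.21 on the log2 scale, which is 92.1% to 115% of the untreated level. Their median difference was -0.0098, beside -0.024 over all 5830 probe sets tested. At 0.5 nM 25 were higher and 34 lower, from -0.13 to 0.19, with a median of -0.0099 beside -0.016 over all probe sets. Between the doses, 31 were higher and 28 lower at 5 µM, with a median of 0.0099 beside -0.0089. The doses share the untreated arrays, so their differences from untreated cells are not independent.

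The same counts were read against the whole array. With limma and Benjamini-Hochberg adjustment over 5830 probe sets, 0 members passed an adjusted p of 0.05 in any of the 3 comparisons, where 0.292% of all probe sets passed at 5 µM against untreated, 0% at 0.5 nM against untreated and 0.257% between the doses. At an unadjusted p under 0.05 there was 1 member at 5 µM, or 1.69%, beside 6.84% of all probe sets. There were 3 at 0.5 nM, or 5.08%, beside 3.29%, and 1 between the doses, or 1.69%, beside 4.65%. The arrays of the groups did not overlap for 3 members at 5 µM, or 5.08%, beside 12.3% of all probe sets. They did not overlap for 4 members at 0.5 nM, or 6.78%, beside 6.98%, and for 5 members between the doses, or 8.47%, beside 6.98%. The members' shares at 5 µM thus lay below those of the array, a difference that was not tested.

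**Figure D1:**
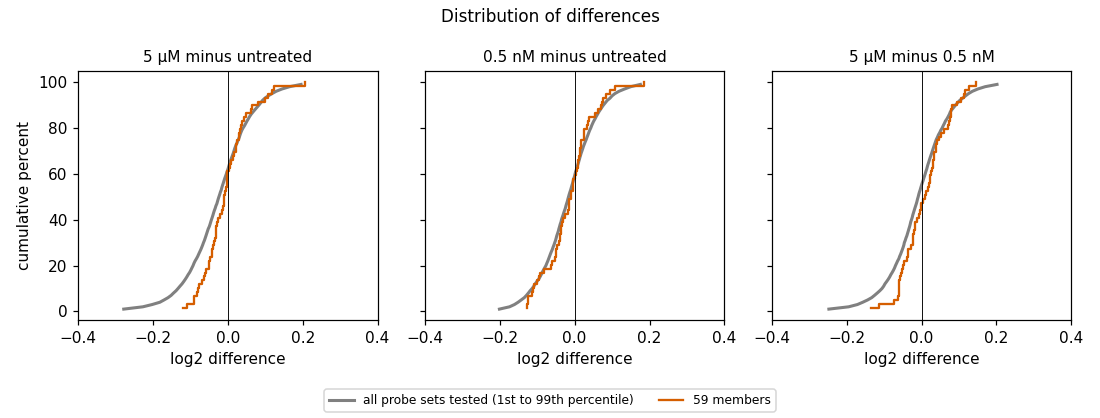
Cumulative percent of log2 differences in the 3 comparisons, for the 59 members (orange steps) and for all 5830 probe sets tested (grey, drawn from the 1st to the 99th percentile). The orange steps run from -0.12 to 0.21 at 5 µM against untreated and lie to the right of the grey curve among the lower values.

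How large a difference in the deposited signal the arrays could have missed is given, for each member singly, by the 95% intervals of the fit. At 5 µM the intervals of the 59 members ran from -0.32 to 0.34 at their widest reach, or 79.9% to 127% of untreated, and all 59 lay within a 1.5-fold change either way. Within a 1.25-fold change lay 56 of them, the exceptions being ATP5IF1, NDUFB7 and COX5A. At 0.5 nM 58 lay within a 1.25-fold change and between the doses 57. The narrowest interval belonged to COX4I1, the largest nuclear subunit of cytochrome c oxidase, at -0.10 to 0.10 around a difference of 0.0021 at 5 µM. The widest belonged to ATP5F1D, the delta subunit in the central stalk of the ATP synthase, with a half-width of 0.24. The median residual SD of single members within groups was 0.0784, beside 0.0877 over all probe sets and 0.0943 over the 2915 brightest. Among the 0.5 nM arrays, however, the members' mean deviation had an SD of 0.070, beside 0.033 over all probe sets and 0.055 over the brightest.

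**Figure D2:**
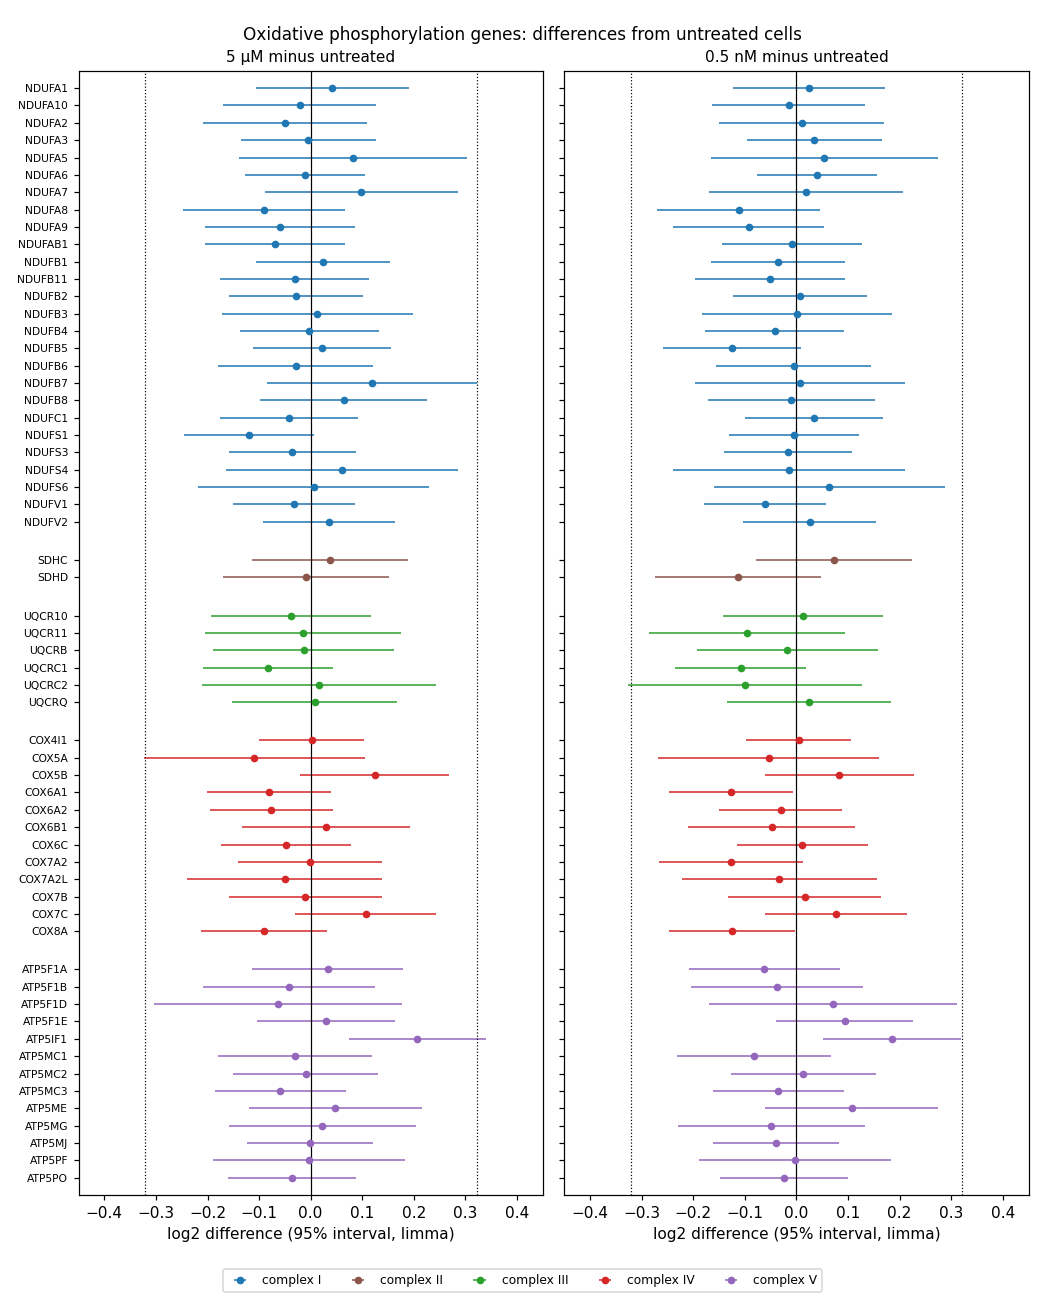
Log2 difference from untreated cells of each of the 59 members at 5 µM (left) and 0.5 nM (right), with its 95% interval from limma, coloured by respiratory complex; dotted lines mark a 1.25-fold change. Of the intervals at 5 µM, 56 lie between the dotted lines, and that of ATP5IF1 reaches 0.34.

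Complex I, the NADH dehydrogenase, had the most members. Of its 26, 11 were higher at 5 µM and 12 at 0.5 nM, with medians of -0.0077 and -0.0051. The 7 subunits of the N module, which takes electrons from NADH, had a median of 0.0060 at 5 µM, the 3 of the Q module, which reduces ubiquinone, -0.035, and the 14 of the membrane arm, which pumps protons, -0.0036. NDUFS1, the largest iron-sulphur subunit of the N module, had the smallest p of the complex at 5 µM. It read 8.57, 8.57 and 8.54 in untreated cells, 8.55, 8.55 and 8.56 at 0.5 nM and 8.35, 8.43 and 8.54 at 5 µM. The first array at 5 µM was the lowest, the third matched the lowest untreated array, and none of the 3 reached the 0.5 nM arrays. The difference from untreated was -0.12 ± 0.06 (SE, n = 3 and 3; limma adjusted p = 0.74). NDUFV1, which binds NADH and the flavin, differed by -0.03 at 5 µM and -0.06 at 0.5 nM.

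NDUFB5, an accessory subunit of the membrane arm, separated the doses. It read 10.58, 10.64 and 10.53 in untreated cells, 10.44, 10.52 and 10.42 at 0.5 nM and 10.59, 10.70 and 10.53 at 5 µM. All 0.5 nM arrays lay below all others, while the 5 µM arrays spanned the untreated ones. It was 0.15 ± 0.06 higher at 5 µM than at 0.5 nM (SE, n = 3 and 3; unadjusted p = 0.0339, limma adjusted p = 0.994), and -0.12 at 0.5 nM against untreated. NDUFB7, also of the membrane arm, differed by 0.12 at 5 µM, with an interval up to 0.32. NDUFA6, an accessory subunit, was lower at 5 µM than at 0.5 nM on every array, by a difference of -0.05 (unadjusted p = 0.362 by limma). The gap was narrow, from 8.777 on the highest 5 µM arrays to 8.791 on the lowest 0.5 nM array. Its untreated arrays, from 8.72 to 8.84, overlapped both doses.

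Complex II, succinate dehydrogenase, was represented by its membrane anchors SDHC and SDHD. SDHC read 9.13, 9.18 and 9.18 in untreated cells, 9.38, 9.20 and 9.12 at 0.5 nM and 9.16, 9.25 and 9.18 at 5 µM. Its groups overlapped throughout, the first 0.5 nM array stood highest, and the 5 µM difference was 0.04. SDHD, which has the NRF1 and ETS motifs in its window, read 8.90, 9.02 and 8.90 in untreated cells, 8.96, 8.84 and 8.68 at 0.5 nM and 8.90, 8.98 and 8.91 at 5 µM. The third 0.5 nM array was its lowest, and the group differed from untreated by -0.11 (unadjusted p = 0.148 by limma). Without the first 0.5 nM array that difference was -0.18, and without the third -0.04. The 5 µM arrays lay within the untreated range.

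Complex III, the cytochrome bc1 complex, had medians of -0.014 at 5 µM and -0.057 at 0.5 nM over 6 members. UQCRC1, a core subunit on the matrix side, read 10.40, 10.43 and 10.47 in untreated cells, 10.38, 10.37 and 10.22 at 0.5 nM and 10.31, 10.37 and 10.37 at 5 µM. All treated arrays lay below all untreated ones, with differences of -0.08 ± 0.06 at 5 µM and -0.11 ± 0.06 at 0.5 nM (SE, n = 3 and 3; limma adjusted p = 0.821 and 0.9999). Without the third 0.5 nM array the 0.5 nM difference was -0.06. Its partner core subunit UQCRC2 read 10.31, 10.40 and 10.21 in untreated cells, 10.45, 10.14 and 10.03 at 0.5 nM and 10.39, 10.38 and 10.20 at 5 µM. The 0.5 nM arrays held both its highest and its lowest value, and the doses differed by 0.12. Without the first 0.5 nM array that difference was 0.24, and without the third 0.03. The smaller subunits UQCRB, UQCRQ, UQCR10 and UQCR11 differed from untreated by -0.01, 0.0078, -0.04 and -0.01 at 5 µM.

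Complex IV, cytochrome c oxidase, had 12 members above the filter, of which 4 were higher at 5 µM and 5 at 0.5 nM, with medians of -0.029 and -0.032. COX5B, a subunit that binds zinc, read 10.87, 10.65 and 10.80 in untreated cells, 10.79, 10.89 and 10.89 at 0.5 nM and 10.87, 10.86 and 10.96 at 5 µM. The groups overlapped, the second untreated array stood lowest, and the 5 µM difference was 0.12 ± 0.07 (SE, n = 3 and 3; limma adjusted p = 0.753). COX5A, which binds the thyroid hormone metabolite diiodothyronine, differed by -0.11 at 5 µM and -0.05 at 0.5 nM.

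COX6A1, the form of subunit VIa found outside muscle, read 12.68, 12.73 and 12.58 in untreated cells, 12.58, 12.52 and 12.51 at 0.5 nM and 12.58 on all 3 arrays at 5 µM. The third untreated array, the first 0.5 nM array and the 5 µM arrays carried the identical deposited value, so the SD at 5 µM was 0. Its 0.5 nM difference was -0.13 ± 0.05 (SE, n = 3 and 3; unadjusted p = 0.0403, limma adjusted p = 0.9999). COX7A2, the form of subunit VIIa found in most tissues, read 12.08, 11.996 and 11.989 in untreated cells, 12.01, 11.84 and 11.83 at 0.5 nM and 11.99, 11.99 and 12.08 at 5 µM. A pair of 0.5 nM arrays lay below all others, and the first did not. The muscle form COX6A2 differed by -0.08 at 5 µM and -0.03 at 0.5 nM, and the supercomplex factor COX7A2L by -0.05 and -0.03.

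COX8A, the form of subunit VIII found in most tissues, is named after its values were seen. It read 11.98, 12.03 and 12.04 in untreated cells, 11.96, 11.84 and 11.87 at 0.5 nM and 11.97, 11.94 and 11.86 at 5 µM. All treated arrays lay below all untreated ones, the nearest by a narrow gap. The differences were -0.09 at 5 µM and -0.12 at 0.5 nM (unadjusted p = 0.0454 at 0.5 nM, limma adjusted p = 0.9999). COX6C, another small subunit, was lower at 5 µM than at 0.5 nM on every array, by a difference of -0.06 (unadjusted p = 0.323 by limma). Its untreated arrays, from 11.30 to 11.48, spanned both doses.

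Complex V had 13 members above the filter, with medians of -0.0032 at 5 µM and -0.025 at 0.5 nM. ATP5F1A, the alpha subunit of the catalytic head, read 12.46, 12.35 and 12.37 in untreated cells, 12.41, 12.32 and 12.26 at 0.5 nM and 12.49, 12.47 and 12.31 at 5 µM. Its groups overlapped, and the doses differed by 0.10 (unadjusted p = 0.178 by limma). ATP5F1B, the catalytic beta subunit, differed by -0.04 at either dose. The genes ATP5MC1, ATP5MC2 and ATP5MC3, which encode the same c subunit of the rotor ring, differed by -0.03, -0.0098 and -0.06 at 5 µM and by -0.08, 0.01 and -0.04 at 0.5 nM. ATP5F1E, the epsilon subunit of the central stalk, was lower at 5 µM than at 0.5 nM on every array, by a difference of -0.06 (unadjusted p = 0.318 by limma). The gap was very narrow, from 11.3941 on the highest 5 µM arrays to 11.3952 on the lowest 0.5 nM array.

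ATP5IF1, which encodes the protein that blocks ATP hydrolysis by the synthase when the proton gradient fails, was the member whose treated arrays lay highest above untreated. It read 9.04, 8.89 and 8.96 in untreated cells, 9.19, 9.15 and 9.11 at 0.5 nM and 9.11, 9.15 and 9.26 at 5 µM. All 6 treated arrays exceeded all 3 untreated arrays, and the doses overlapped. The difference was 0.21 ± 0.06 at 5 µM, with a 95% interval of 0.07 to 0.34, or 115% of untreated (SE, n = 3 and 3; unadjusted p = 0.00588, limma adjusted p = 0.456). It was 0.19 ± 0.06 at 0.5 nM, with an interval of 0.05 to 0.32, or 114% (SE, n = 3 and 3; unadjusted p = 0.0111, limma adjusted p = 0.9999). Between the doses it differed by 0.02, with an interval of -0.11 to 0.16. It did not pass the threshold, and as the extreme of 59 members its unadjusted p-values and intervals read too strong.

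**Figure D3:**
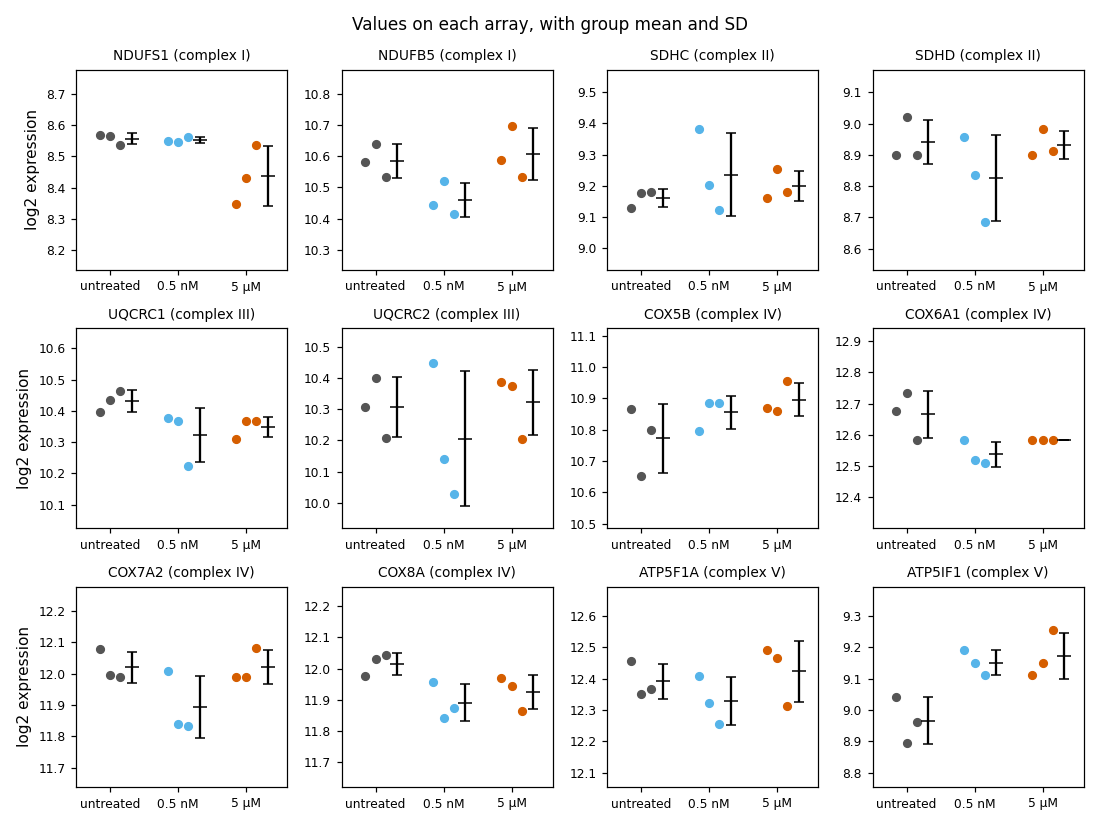
Log2 expression of 12 members on each array in untreated cells and at 0.5 nM and 5 µM S100B, with the group mean and SD (n = 3) beside the points; each panel has its own axis of equal span, and levels are not comparable between panels. For ATP5IF1 all 6 treated arrays lie above the untreated ones, and for COX6A1 the 5 µM points fall on 1 value.

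The 2 members below the intensity filter were ATP5F1C, the gamma subunit of the ATP synthase rotor, with a mean of 5.44, and COX7A1, the muscle form of subunit VIIa, with a mean of 5.56. Fitted with no filter, ATP5F1C differed by 0.018 ± 0.05 at 5 µM (SE, n = 3 and 3; limma adjusted p = 0.962) and -0.0090 at 0.5 nM. COX7A1 differed by -0.04 ± 0.08 at 5 µM (SE, n = 3 and 3; limma adjusted p = 0.955) and 0.07 at 0.5 nM. The dimmest member above the filter was COX6A2, with a mean of 7.13.

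The largest shift shared by the members was between arrays of the same group. The mean deviation of the 59 members from their own averages was 0.068 on the first 0.5 nM array, -0.022 on the second and -0.069 on the third. On the other 6 arrays it ran from -0.0092 to 0.034. The first 0.5 nM array exceeded the third in 50 of 59 members, or 84.7%, beside 61.7% of all probe sets and 73.0% of the 2915 brightest. It did so in 21 of 26 members of complex I, 2 of 2 of complex II, 6 of 6 of complex III, 9 of 12 of complex IV and 12 of 13 of complex V. The median gap between these arrays was 0.132 for the members, 0.047 for all probe sets and 0.095 for the 2915 brightest. Members were thus shifted together with, and further than, the 2915 brightest probe sets taken as a whole. Those probe sets were not matched to the members in brightness, and the difference was not tested.

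The members' mean over the 3 arrays of a group differed from untreated by -0.0044 at 5 µM and -0.014 at 0.5 nM. The SD of that mean among arrays was 0.024 in untreated cells, 0.070 at 0.5 nM and 0.0095 at 5 µM, so neither shift exceeded the spread between replicates. Leaving out the first 0.5 nM array moved the members' median difference at 0.5 nM from -0.0099 to -0.057, and leaving out the third moved it to 0.011. Between the doses it moved from 0.0099 to 0.042 without the first of these arrays and to -0.020 without the third.

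**Figure D4:**
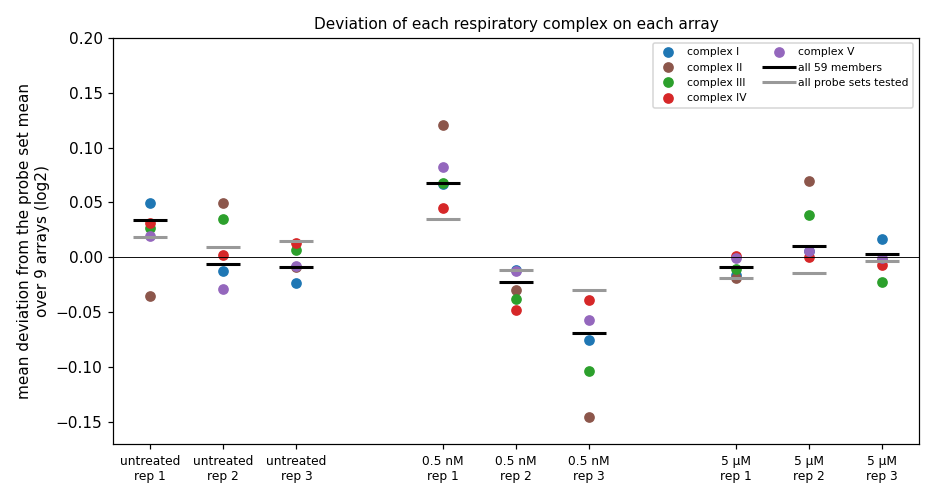
Mean deviation (log2) of the members of each complex on each of the 9 arrays from each probe set's mean over all arrays, with black bars for all 59 members and grey bars for all 5830 probe sets. The first 0.5 nM array stands at 0.068 and the third at -0.069, while the 5 µM arrays lie between -0.0086 and 0.010.

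Exact repeats in the deposited values bear on how the spread is read. Of the 59 members, 32 carried an identical value on at least 2 arrays, or 54.2%, beside 53.2% of all probe sets. On at least 3 arrays 9 did, or 15.3%, beside 22.6%. COX6A1 and COX6A2 had 1 value on 5 arrays and NDUFV1 on 4. COX6A1 was the only member with the same value on all 3 arrays of a group, as 119 of the 5830 probe sets had. How these repeats arose, and their part in the residual SD, was not tested.

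Neighbouring mitochondrial genes that the name rule does not take were compared by the same fit, and 0 genes of any of these lists passed an adjusted p of 0.05 in any comparison. Other respiratory chain and carrier genes, 12 of them above the filter, had medians of -0.04 at 5 µM and -0.02 at 0.5 nM. The smallest p among them was that of VDAC1, a channel of the outer membrane, with -0.31 ± 0.09 at 5 µM (SE, n = 3 and 3; unadjusted p = 0.0067, limma adjusted p = 0.463). The 11 assembly factors had medians of -0.0053 and -0.06, with COX11, which delivers copper to cytochrome c oxidase, at 0.13 at 5 µM and COX10, which acts in making its haem, at -0.12 at 0.5 nM. The 17 genes of the tricarboxylic acid cycle and pyruvate entry had medians of -0.01 and -0.03, with PC at -0.16 at 5 µM and PDHX at -0.14 at 0.5 nM.

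The 16 genes of the mitochondrial ribosome had medians of -0.05 and -0.02, with MRPL49, a protein of the large subunit, at -0.15. The 13 genes of mitochondrial biogenesis and DNA upkeep had medians of -0.03 and -0.0067, with POLG2, the accessory subunit of the mitochondrial DNA polymerase, at -0.12 at 0.5 nM. The 16 protein import genes had medians of -0.02 and 0.00017, with TOMM34, a cytosolic partner of the import machinery, at -0.14 at 5 µM and TIMM44, which tethers the import motor, at 0.14 at 0.5 nM. Lower at 5 µM than in untreated cells were 9 of 12 carrier genes, 7 of 11 assembly factors, 10 of 17 cycle genes, 12 of 16 ribosomal genes, 10 of 13 biogenesis genes and 10 of 16 import genes, beside 3608 of all 5830 probe sets.

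The direction of the members as a whole rested on the scaling between arrays. With the values as deposited 23 of 59 were higher at 5 µM, 34 after quantile normalization and 35 after centring each array on its median. At 0.5 nM the counts were 25, 26 and 35, and between the doses 31, 37 and 31. The whole array moved with the scaling as well. At 5 µM the median over all tested probe sets was -0.024 as deposited, 0.0022 after quantile normalization and -0.00059 after centring. The members' median was -0.0098, 0.0126 and 0.0133, above that of the array each time. Of the single members, 13 changed sign under at least 1 of these scalings at 5 µM, 10 at 0.5 nM and 6 between the doses, the largest of their differences being 0.03 in size. No member passed the adjusted threshold under these scalings. The number of probe sets passing on the whole array depended on single arrays: leaving out any 1 untreated or 5 µM array reduced the 17 passing at 5 µM to between 4 and 9. The 15 passing between the doses became 3 to 6 without any 1 of the 0.5 nM arrays, 8 without the first 5 µM array and 4 without the second.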

How the data were processed

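Log2 expression values, 1 per probe set and array, were used as deposited; per the submitters' processing notes the authors made them with GCRMA, with no version or setting given in the sources used here. GCRMA corrects background by probe sequence, normalises between arrays and may compress differences of dim probe sets. Values ran from 4.37 to 14.5. Scanner intensities were not used here. Groups came from the sample titles, and 0 columns were unmapped.

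Of 8793 probe sets, 47 controls and the dimmest 33.3% by mean over all arrays (2916, at or below 5.95) were left out, and 5830 were tested. A linear model with moderated variances (limma 3.58.1, R 4.3.3) was fitted to all 9 arrays, with 3 groups, no covariate, Benjamini-Hochberg over 5830, threshold 0.05. The script was tested on simulated data. An exact permutation test of 3 against 3 arrays cannot go below 0.1, and the number of arrays limits the precision. Symbols came from the platform's annotation, updated through RefSeq; all 61 members matched. Of the members, 27 probe sets have the suffix _s_at and 1 _x_at, which can read related transcripts.

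The deviations of same-numbered arrays gave correlations of -0.00035 to 0.330, the lowest being the only negative one. Numbers were not taken as pairs in the main fit, and whether same-numbered arrays share a factor was not tested. A fit with a replicate block is among the alternatives. The third arrays of the groups did deviate together in every comparison (0.298, 0.330 and 0.298). Differently numbered arrays gave correlations of -0.367 to 0.348. Members and lists were chosen with earlier results of these data known. Genes named were, in each complex, the member with the smallest p in each comparison. From each other list, genes with the smallest p in a comparison with untreated cells are named, though not for every comparison. Other members are named by role, by absence of overlap between groups or as extremes.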

Additional observations from a re-analysis of the deposited data

How the results depend on the processing

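Of the members, 0 passed an adjusted p of 0.05 by limma in any of the 3 comparisons under the alternatives run: other filters, other scalings, only the groups compared, a replicate block, an intensity trend, no moderation, 1 probe set a gene, and each array left out. No call of a single member changed. Only another scaling, or leaving out an array of a compared group, can change the difference of a member. The other alternatives leave it as it is and cannot test its direction. Under the other scalings and with each array left out, the members with the smallest p of their complex in a comparison kept their direction. ATP5IF1 ranged from 0.17 to 0.25 at 5 µM (adjusted p 0.198 to 0.983) and from 0.15 to 0.22 at 0.5 nM (0.605 to 1). With a replicate block, 15 probe sets passed at 5 µM against untreated, 0 at 0.5 nM and 15 between the doses, and no call of a member changed. With only the groups compared, 7 probe sets passed at 5 µM and 4 between the doses, and without moderation 1 and 1. Leaving out 1 array gave 4 to 17 probe sets at 5 µM and 3 to 14 between the doses. The members' median difference at 0.5 nM ranged from -0.057 to 0.011 with 1 array left out. Apart from the replicate block, these counts of probe sets used fewer samples or a spread that was not moderated. Signal over background could not be read from the deposited values.

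Small differences of other named members changed sign. At 5 µM against untreated, quantile normalization gave 0.017 for SDHD, 0.021 for UQCRB, 0.0026 for UQCR11, 0.016 for ATP5MC1 and 0.0030 for ATP5MC2. Median centring gave 0.014 for SDHD, 0.0098 for UQCRB, 0.0089 for UQCR11 and 0.013 for ATP5MC2. With 1 array left out, the 5 µM difference ranged from -0.052 to 0.0077 for NDUFV1, -0.034 to 0.032 for SDHD and -0.064 to 0.069 for UQCRB. It ranged from -0.041 to 0.039 for UQCRQ, -0.10 to 0.032 for UQCR10 and -0.074 to 0.039 for UQCR11. It ranged from -0.0078 to 0.013 for COX4I1, -0.10 to 0.011 for COX7A2L and -0.077 to 0.0083 for ATP5F1B. For ATP5MC1 it ranged from -0.091 to 0.040 and for ATP5MC2 from -0.034 to 0.032. The 0.5 nM difference ranged from -0.17 to 0.020 for COX5A, -0.13 to 0.028 for COX7A2L, -0.081 to 0.036 for ATP5F1B and -0.041 to 0.055 for ATP5MC2. Between the doses, ATP5IF1 ranged from -0.019 to 0.052. Without a change of sign, NDUFS1 at 5 µM ranged from -0.17 to -0.07 and COX5B from 0.06 to 0.17.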
